A study of Mus musculus with 4 samples.

Results

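C-type lectin receptors are surface proteins of myeloid cells that read sugars, lipids and debris of dead cells on microbes and host tissue. The rows studied here are the 39 of 22700 whose symbol starts with Clec and a digit, starts with Cd209, or is Mgl2. RNA came from marrow of male mice aged 12 weeks, grown over 7 to 8 days with M-CSF (10 ng/ml) or GM-CSF (20 ng/ml). The donors were diabetic db/db mice, labelled BKS.Cg-m+/+leprdb/J, or control littermates, db/+, labelled BKS.Cg-m+/+leprdb+/J. The db mutation lies in Lepr, the leptin receptor gene, and controls carry 1 copy of it. The labels call the cells of all groups bone marrow macrophages. Ribosome-depleted total RNA was sequenced in read pairs, with 1 library in each of 4 groups, and the sources do not say whether a library pooled animals.

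Receptors such as Dectin-1, Dectin-2 and Mincle activate cells through the kinase Syk and the adaptor Card9, either with a tyrosine motif of their own or through the Fc receptor gamma chain Fcer1g. Others, such as Clec12a and the DCIR protein encoded by Clec4a2, carry an inhibitory motif and recruit phosphatases. In the mouse most of these genes lie in 2 clusters named after Dectin-1 and Dectin-2, and RefSeq places 23 of the 39 on chromosome 6. Some symbols in the set are not receptors of this kind: Clec11a is a secreted growth factor of marrow stroma, Clec3b is the plasma protein tetranectin, and Clec16a works in endosomes and mitophagy.

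Values are normalised read counts, and of each pair of values from a culture the db/+ library comes first and the db/db library second. Depth was 25603389 to 28622705 reads per library. Ratios carry a 95% exact interval computed on read pairs, that is on reads divided by 2, because mates of a pair are not independent. It covers counting error only, since each group has 1 library. PCR copies are not independent molecules, so it may be too narrow even for that. Log2 folds were taken on log2(value + 5), which understates folds at low values. Genes reaching 20 in at least 1 library were tested, 13642 in all. Culture type and genotype were tested in 1 additive limma model over the 4 libraries, with 1 residual degree of freedom and Benjamini-Hochberg adjustment over all 13642 genes. The GM-CSF libraries of the 2 genotypes stood close together: over 4355 genes with 200 to 1000 reads their mean squared deviation was 1.07 times what the sampling of pairs alone gives, against 7.32 times over 4471 genes in M-CSF. Nothing in the labels says whether they came from separate cultures, so p-values rest on the spread between these libraries only. No group had a replicate library. In the test for culture the 2 genotypes stood in for replicates, and in the test for genotype the 2 cultures did. The residual was the difference between the culture folds of db/+ and db/db, which pools the unequal spreads of M-CSF and GM-CSF. The variance used for a gene came mostly from other genes, as the limma prior carried 12.9 degrees of freedom against 1 residual. Without a trend of variance with level the prior carried 2.11. The limma adjusted p for culture of Clec4a1 then went from 2.32e-15 to 0.00335, so the very small p-values depend on this setting. All 10 macrophage markers were detected in every library, with a summed level of 349318 to 381323 in M-CSF and 100008 to 103031 in GM-CSF. The db/+ M-CSF library also had signal for 526 of 1123 olfactory receptors, compared with 331 in its db/db counterpart and 96 to 114 in GM-CSF, which bears on values of a few reads.

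Of the 39 genes, 26 reached 20 in at least 1 library. The lowest maximum inside this limit was 21.5, for Clec2l, and the highest outside it was 12.2, for Clec14a. Together the 39 genes took 0.239% to 0.246% of the reads in the 4 libraries, while the genes that made up that share changed with the culture. The share was nearly constant in reads only. On the normalised scale used for all levels here, the 39 genes summed to 58640 and 59193 in M-CSF and to 72834 and 75181 in GM-CSF. The GM-CSF libraries had higher levels of Clec7a, Clec4n, Clec4e, Clec9a, Clec1b, Clec1a, Clec5a and Mgl2. The M-CSF libraries had higher levels of Clec4a1, the other DCIR and DCAR genes, Clec12a, Clec4d, Clec2d and Clec10a. For genotype 0 of the 26 were called, by a model that can hardly call a difference confined to 1 culture.

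**Figure D1:**
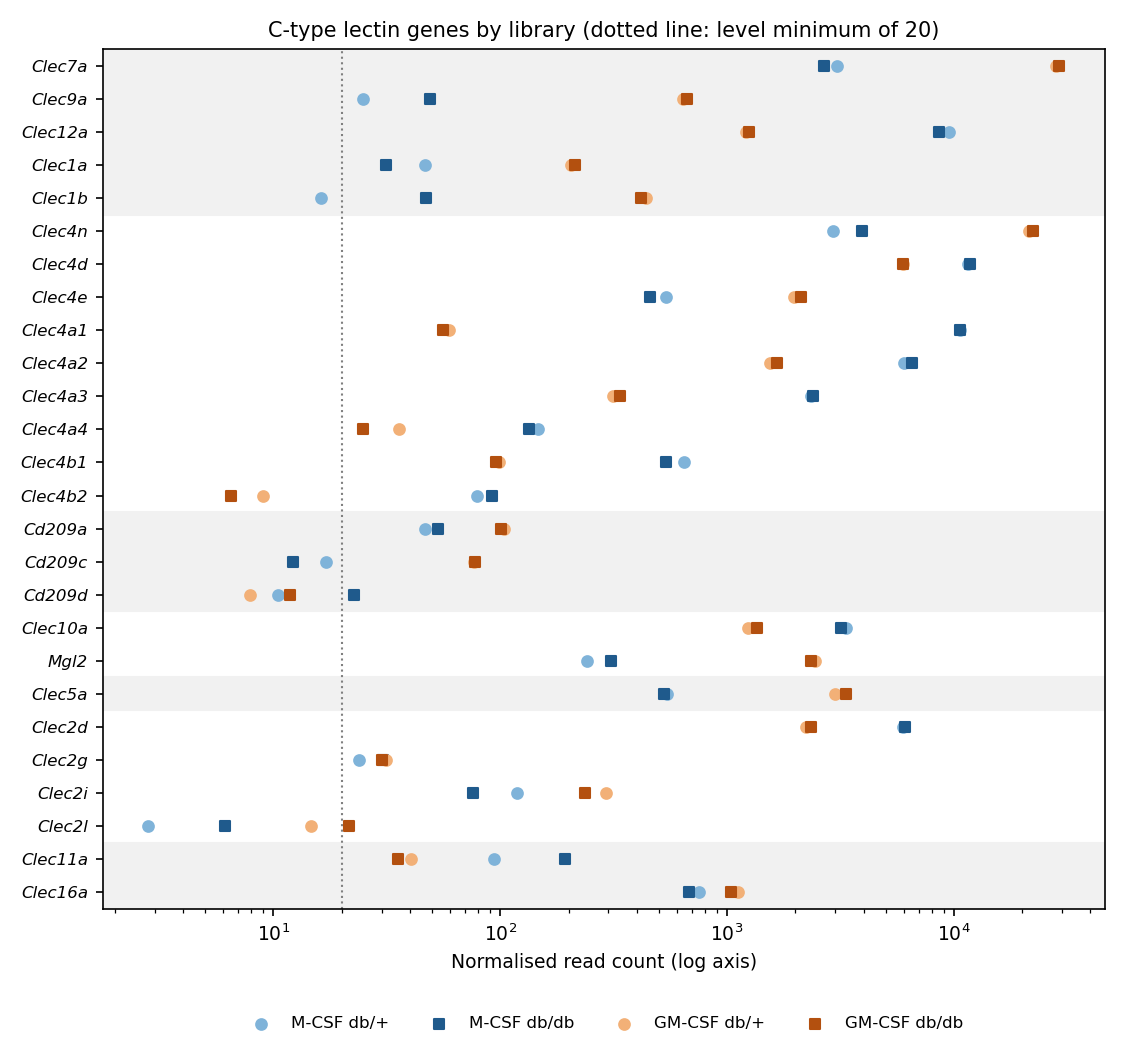
Normalised read counts (log axis) of the 26 genes that reached 20 in at least 1 library, 1 point per library, shaded by gene group from the Dectin-1 cluster at the top to the other Clec symbols at the bottom. Both GM-CSF points lie to the right of both M-CSF points for 13 genes and to the left for 11.

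The first question was how the culture conditions differ. In the additive limma model 12 of the 26 genes were higher in GM-CSF and 11 lower at an adjusted p under 0.05, where 29.8% of all 13642 genes were called higher and 27.3% lower. By fold, in db/+ marrow 12 were up by 2-fold or more in GM-CSF and 10 down by as much, against 12% and 15.7% of all genes. In db/db marrow, whose libraries are not those of the db/+ comparison, 11 were at least 2-fold higher and 10 lower, against 11.3% and 15.8%. The median absolute log2 fold was 1.93 in db/+ and 2.28 in db/db, against 0.48 and 0.47 over all genes. In 21 of 26 the fold was at least 2 in the same direction in both genotypes, against 23.1% of all genes. Both GM-CSF values exceeded both M-CSF values for 13 genes and lay below them for 11, against 41.6% and 38.9% of all genes. Cd209d, Clec4b2, Clec2l and Cd209c reached 20 in libraries of 1 culture only, which favours a difference, and they stay in the counts above. Of the 22 genes that reached 20 in both cultures, 21 were called for culture. The share of all genes under that stricter limit was not computed. Equal library totals in place of the authors' scaling lowered GM-CSF over M-CSF by a median of 0.32 (db/+) and 0.35 (db/db) on the log2 scale, leaving 10 of the 26 genes called higher and 11 lower, and turned the calls over all genes from 4062 higher and 3725 lower to 2295 and 6368. No gene of the 26 changed direction with it in any of the 4 pairwise comparisons, but the limma fold of Clec2g, which was not called, went from 0.16 to -0.13. RNA of whole cultures cannot tell fewer cells of a type from less RNA per cell.

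**Figure D2:**
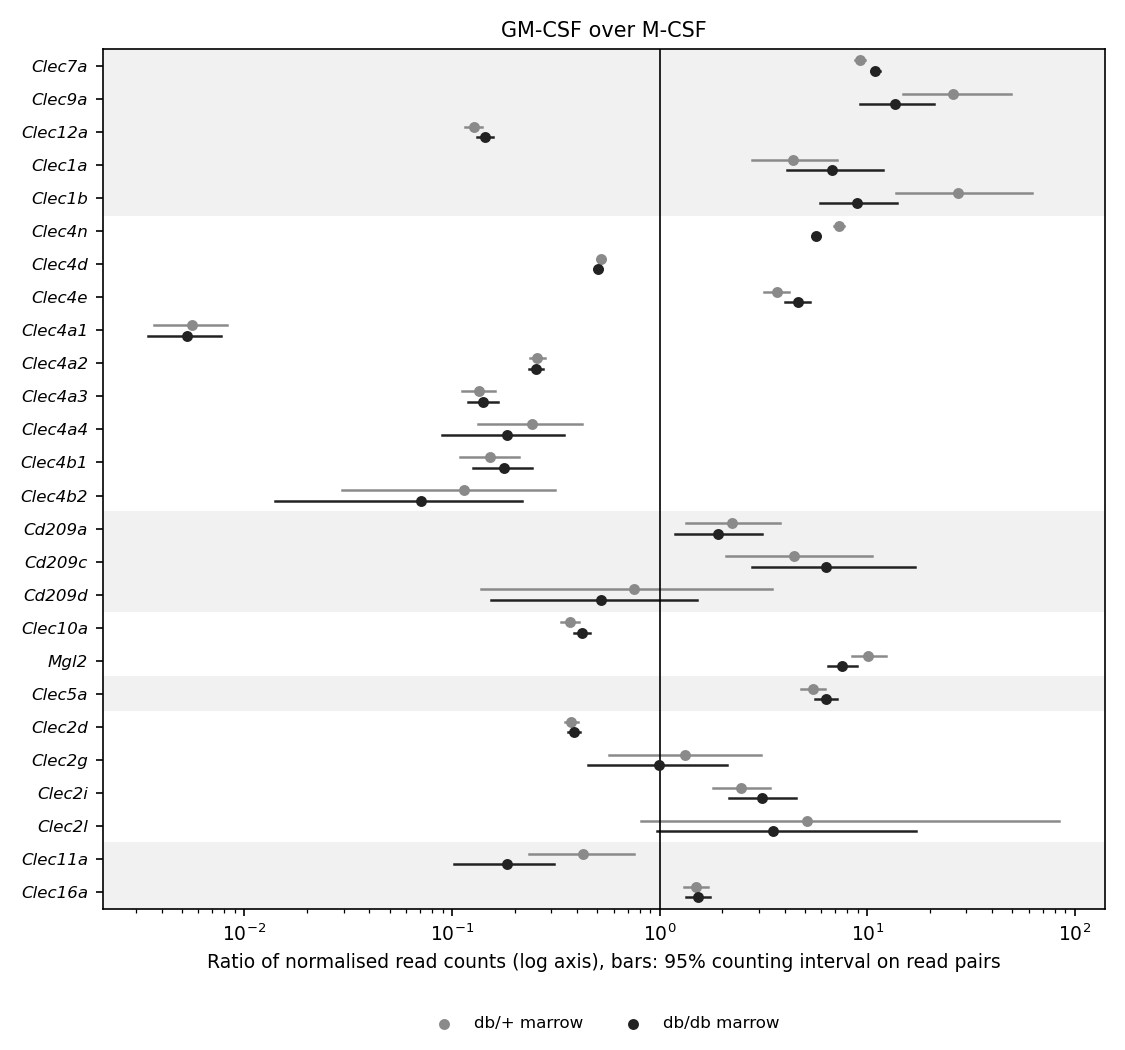
Ratio of normalised read counts in GM-CSF over M-CSF (log axis) for the 26 genes, in db/+ (grey) and db/db (black) marrow, with 95% counting intervals on read pairs as bars. Clec4a1 stands alone on the left, at ratios of 0.00561 and 0.00526, and the intervals of the 2 genotypes fail to overlap for Clec4n and Clec7a only, against 11.3% of all genes.

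In the Dectin-1 cluster 5 of 6 genes reached the limit. Limma called 4 of them higher in GM-CSF and 1 lower, against 29.8% and 27.3% of all genes. Clec7a encodes Dectin-1, the receptor for fungal beta-glucans. It was at 3058.0 and 2665 in M-CSF and at 28171 and 29126 in GM-CSF. The GM-CSF libraries were thus well above both M-CSF libraries, by 9.21 times (8.75 to 9.71) in db/+ and 10.9 times (10.4 to 11.5) in db/db, with a limma log2 fold of 3.32 ± 0.09 (SE) and an adjusted p of 4.31e-13. Clec9a, also called DNGR-1, binds actin filaments laid bare on dead cells and marks cross-presenting dendritic cells. Its values were 24.7 and 48.8 in M-CSF and 640.4 and 667.0 in GM-CSF. That is 25.9 times (14.9 to 49.2) in db/+ and 13.7 times (9.27 to 20.9) in db/db, a limma log2 fold of 4.04 ± 0.23 (SE), adjusted p 1.45e-09. The other markers of dendritic cells did not all move with it: the list of 10, which holds Cd209a, summed to 12107 to 15172 in M-CSF and 78972 to 79541 in GM-CSF, where Itgax alone gave 56042 to 56259. Xcr1, the chemokine receptor of the same dendritic subset and named after its values were seen, was at 60.9 and 47.0 in M-CSF and 32.5 and 37.7 in GM-CSF, and Flt3 was at 53.3 and 76.7 in M-CSF and 0 in both GM-CSF libraries. By limma 8 of the 10 were higher and 1, Flt3, lower, against 29.8% and 27.3% of all genes. Xcr1 was not called (limma adjusted p 0.185). Batf3 and Cd24a, also named after their values were seen, were among the 8, with limma log2 folds of 0.74 and 4.13. The part of dendritic cells in the Clec9a difference was not tested.

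Clec1b encodes CLEC-2, the podoplanin receptor best known from platelets. It was at 16.2 and 47.0 in M-CSF and at 440.8 and 418.5 in GM-CSF, a limma log2 fold of 3.71 ± 0.30 (SE) with an adjusted p of 6.02e-08. Of 6 markers of megakaryocytes and platelets limma called 5 lower in GM-CSF and 0 higher, against 27.3% and 29.8% of all genes. They summed to 9152 and 10061 in M-CSF and to 2116 and 2122 in GM-CSF, most of it Pf4, at 8476 and 8935 in M-CSF and 1948 and 1904 in GM-CSF. Clec1a, a receptor for fungal melanin, was at 46.6 and 31.4 in M-CSF and at 204.1 and 213.0 in GM-CSF (limma log2 fold 2.30 ± 0.26 SE, adjusted p 3.13e-06). Reads of Clec1b, Clec9a and Clec1a may be shared, since the RefSeq model of Clec12b overlaps all 3 of these genes, and Clec12b itself was at 1.1 to 8.7. Clec12a was the exception of the cluster. This inhibitory receptor, which senses uric acid crystals, was at 9508.7 and 8618.5 in M-CSF and at 1207.9 and 1246.9 in GM-CSF, or 0.127 times (0.116 to 0.139) and 0.145 times (0.133 to 0.158). Its limma log2 fold was -2.88 ± 0.09 (SE), adjusted p 1.35e-12. Within a library, where scaling cancels, Clec7a stood at 0.322 and 0.309 times Clec12a in M-CSF and at 23.3 and 23.4 times in GM-CSF, in reads not corrected for length. Clec12a, Clec4d and several DCIR genes are also expressed by neutrophils, and 7 neutrophil markers summed to 15646 and 16427 in M-CSF and to 784 and 908 in GM-CSF. The part of neutrophils in the lower GM-CSF levels was not tested.

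All 9 genes of the Dectin-2 cluster were called, 2 higher and 7 lower in GM-CSF, against 29.8% and 27.3% of all genes. Clec4n encodes Dectin-2, which binds fungal mannans and signals through Fcer1g. Its values were 2940.0 and 3952 in M-CSF and 21545 and 22324 in GM-CSF, or 7.33 times (6.94 to 7.74) in db/+ and 5.65 times (5.40 to 5.91) in db/db. The limma log2 fold was 2.68 ± 0.10 (SE) with an adjusted p of 1.01e-11. Clec4e encodes Mincle, the receptor for mycobacterial cord factor. It was at 538.4 and 458.3 in M-CSF and 1970.6 and 2115.0 in GM-CSF, a limma log2 fold of 2.03 ± 0.11 (SE), adjusted p 8.90e-10. Its partner MCL, encoded by Clec4d, binds the same lipid and went the other way, from 11500 and 11830 in M-CSF to 5993.7 and 5938.4 in GM-CSF. Those ratios of 0.521 (0.498 to 0.546) and 0.502 (0.480 to 0.525) came to -0.94 and -0.99 on the log2(value + 5) scale, just short of 2-fold, and the gene passed the test (limma adjusted p 1.51e-07). Clec4e therefore stood at 0.0468 and 0.0387 times Clec4d in the M-CSF libraries and 0.329 and 0.356 times in the GM-CSF libraries.

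The DCIR and DCAR genes were all lower in GM-CSF. Clec4a1, the DCIR4 gene, was at 10596 and 10637 in M-CSF and at 59.5 and 55.9 in GM-CSF. Per kb of transcript it ranked 2 of the 26 genes in M-CSF and 21 and 20 in GM-CSF. Both GM-CSF libraries lay far below both M-CSF libraries, at 0.00561 times (0.00368 to 0.00820) and 0.00526 times (0.00343 to 0.00771) the M-CSF level. Its limma log2 fold of -7.40 ± 0.11 (SE), adjusted p 2.32e-15, was the largest of the 26. Clec4a2, which encodes the inhibitory receptor DCIR, was at 5996.1 and 6549 in M-CSF and 1544.4 and 1667.5 in GM-CSF, a limma log2 fold of -1.96 ± 0.08 (SE), adjusted p 5.43e-11. Clec4a3, a DCIR paralog, was at 2343.6 and 2381.4 in M-CSF and at 315.2 and 335.7 in GM-CSF. Clec4a4 encodes DCIR2, an inhibitory receptor of a splenic dendritic subset, and was at 147.4 and 134.2 in M-CSF and 35.9 and 24.7 in GM-CSF. The activating receptor gene Clec4b1 (DCAR) was at 644.9 and 539.4 in M-CSF and 98.7 and 95.8 in GM-CSF. Its paralog Clec4b2 was at 78.9 and 91.5 in M-CSF and at 9.0 and 6.5 in GM-CSF, near the floor of 3 read pairs, which is 6.73 and 6.45 there. Both inhibitory and activating genes of this stretch were therefore lower together, with limma log2 folds of -2.84 ± 0.11 (SE) for Clec4a3, -2.06 ± 0.29 for Clec4a4, -2.54 ± 0.17 for Clec4b1 and -2.83 ± 0.39 for Clec4b2. These paralogs are alike in sequence, so reads may have been split between them.

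**Figure D3:**
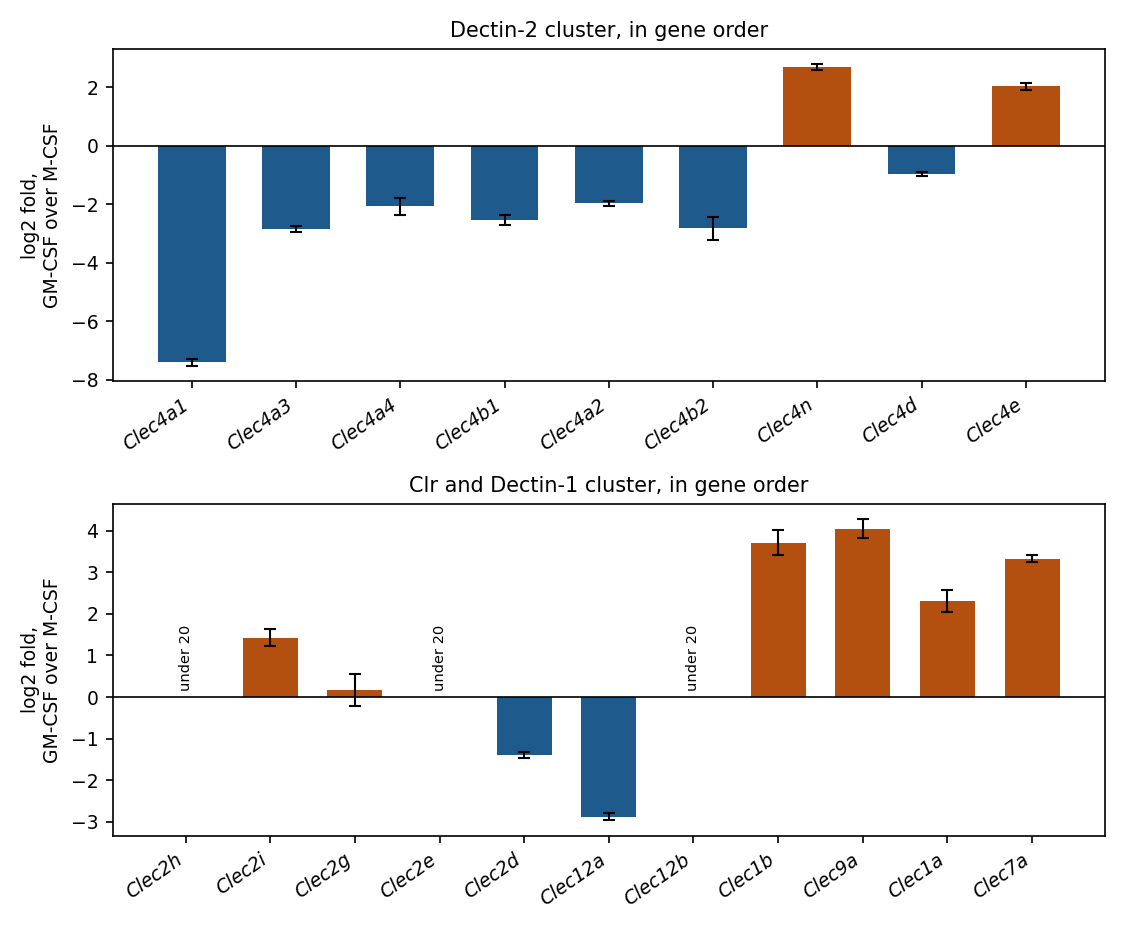
Limma log2 fold of GM-CSF over M-CSF for the genes of the Dectin-2 cluster (top) and of the Clr and Dectin-1 cluster (bottom), placed by rank along chromosome 6 in RefSeq, with the SE as error bars. The 6 neighbours from Clec4a1 to Clec4b2 lie between -7.40 and -1.96, followed by Clec4n at 2.68, Clec4d at -0.97 and Clec4e at 2.03, and the run from Clec1b to Clec7a lies between 2.30 and 4.04.

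Gene order followed this split in part. In RefSeq the Dectin-2 cluster runs Clec4a1, Clec4a3, Clec4a4, Clec4b1, Clec4a2, Clec4b2, Clec4n, Clec4d and Clec4e, with 0 other protein-coding genes starting in between. The first 6 were lower in GM-CSF, and the last 3 alternated. The Clr and Dectin-1 stretch is less compact, with 8 other protein-coding genes starting within it, among them Cd69 and several Klrb1 genes. In its order Clec2i was higher, Clec2g was not called, Clec2d and Clec12a were lower, and Clec1b, Clec9a, Clec1a and Clec7a were higher. Clec2h, Clec2e and Clec12b, which also lie there, had too few reads to place. On chromosome 11 Mgl2, higher, adjoins Clec10a, lower.

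Mgl2 and Clec10a encode the galactose-binding lectins CD301b and CD301a, which arose by duplication and are often stained together. Mgl2 was at 240.6 and 308.4 in M-CSF and at 2438.3 and 2340.9 in GM-CSF, or 10.1 times (8.42 to 12.3) and 7.59 times (6.47 to 8.95). Its limma log2 fold was 3.11 ± 0.12 (SE), adjusted p 2.23e-11. Clec10a was at 3359.5 and 3189.1 in M-CSF and 1242.7 and 1351.2 in GM-CSF, or 0.370 times (0.336 to 0.407) and 0.424 times (0.386 to 0.464), with a limma log2 fold of -1.33 ± 0.09 (SE), adjusted p 1.09e-08. The Mgl2 to Clec10a ratio within a library was 0.0716 and 0.0967 in M-CSF and 1.96 and 1.73 in GM-CSF. The summed level of this pair and Clec4f, the Kupffer cell receptor at 0 to 5.7, was 3502 to 3606 in M-CSF and 3681 to 3692 in GM-CSF, so the sum differed far less than either gene. The pair is similar in sequence, so reads may have been split between them.

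Promoters of called genes are shown so that the sequence next to the start sites of genes from both directions can be compared. They are the 250 bases upstream of the start site from RefSeq, build GRCm38.p6, 5′ to 3′ on the gene's strand, with GAGGAA or its complement TTCCTC in capitals. GAGGAA is the core of the site bound by PU.1, the transcription factor that macrophages and dendritic cells depend on. Clec9a, at chr6:129408612-129408861 (+), and Clec7a, at chr6:129472780-129473029 (-), were higher in GM-CSF. Clec4a1, at chr6:122921598-122921847 (+), and Clec4b1, at chr6:123049712-123049961 (+), were lower.
Clec9a: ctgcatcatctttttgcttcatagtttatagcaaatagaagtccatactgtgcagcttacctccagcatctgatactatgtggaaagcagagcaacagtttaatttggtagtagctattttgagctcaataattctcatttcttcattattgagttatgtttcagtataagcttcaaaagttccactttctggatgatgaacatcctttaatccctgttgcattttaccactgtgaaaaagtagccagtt
Clec7a: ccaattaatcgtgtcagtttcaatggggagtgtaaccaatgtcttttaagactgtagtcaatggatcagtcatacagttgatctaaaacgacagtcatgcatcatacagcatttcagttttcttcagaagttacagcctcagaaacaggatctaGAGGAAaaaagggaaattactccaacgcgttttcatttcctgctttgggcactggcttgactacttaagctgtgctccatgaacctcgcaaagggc
Clec4a1: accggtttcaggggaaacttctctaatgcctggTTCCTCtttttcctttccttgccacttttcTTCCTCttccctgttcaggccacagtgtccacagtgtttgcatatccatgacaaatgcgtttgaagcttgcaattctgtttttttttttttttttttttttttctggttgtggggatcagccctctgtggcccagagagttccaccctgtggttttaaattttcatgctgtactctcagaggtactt
Clec4b1: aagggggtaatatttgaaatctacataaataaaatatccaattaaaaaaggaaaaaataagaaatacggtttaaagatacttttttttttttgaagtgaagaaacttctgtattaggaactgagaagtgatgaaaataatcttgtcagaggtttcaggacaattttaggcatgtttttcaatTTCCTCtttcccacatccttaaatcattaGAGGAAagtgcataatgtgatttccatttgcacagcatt
The 6 letters occur 0 times in the Clec9a window, 1 time in that of Clec7a, and 2 times each in those of Clec4a1 and Clec4b1. They also occur 0 times in the windows, not shown, of Clec1b, which was higher in GM-CSF, and of Clec4a3, which was lower. RefSeq's table matched 22 of the 26 genes. On either strand GAGGAA was found upstream of 5 of 10 genes called higher (Clec5a, Clec4e, Clec7a, Mgl2 and Clec16a) and 6 of 9 called lower (Clec4a1, Clec4b1, Clec4b2, Clec4d, Clec12a and Clec11a), and in 23.1% of all 27025 promoters of this length. TTCNNNGAA, the spacing that STAT factors downstream of GM-CSF bind, was found in 7.18% of all promoters, in 0 of 10 and in 1 of 9 (Clec4a2). TGANTCA, the AP-1 site, was found in 6.87% of all, in 0 of 10 and in 1 of 9 (Clec12a), and the interferon-response motif in 3.04% of all, in 0 of 10 and in 2 of 9 (Clec4b1 and Clec2d). Matches of different motifs may share bases, and a match is a description of letters only.

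Clec5a encodes MDL-1, which signals through the adaptor DAP12, the product of Tyrobp. It was at 546.0 and 528.0 in M-CSF and at 2991.2 and 3342.5 in GM-CSF, or 5.48 times (4.82 to 6.25) and 6.33 times (5.59 to 7.18). Both GM-CSF libraries were above both M-CSF libraries, with a limma log2 fold of 2.55 ± 0.10 (SE) and an adjusted p of 2.07e-11. Tyrobp was at 21352 and 19102 in M-CSF and 25478 and 27208 in GM-CSF, so the receptor and its adaptor differed in size of fold.

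The DC-SIGN family was expressed at low levels, with 3 of 8 genes at or above 20. Cd209a, the mouse gene usually called DC-SIGN, was at 46.6 and 53.1 in M-CSF and at 104.3 and 101.1 in GM-CSF, a limma log2 fold of 0.98 ± 0.28 (SE) with an adjusted p of 0.00787. That call was lost with DESeq2 on recovered reads (adjusted p 0.199), with equal library totals, where the log2 fold was 0.66 and the limma adjusted p 0.0564, and without either GM-CSF library (limma adjusted p 0.0924 without db/+ and 0.0809 without db/db). Cd209c was at 17.1 and 12.2 in M-CSF and 76.3 and 77.5 in GM-CSF (limma log2 fold 2.07 ± 0.36 SE, adjusted p 1.98e-04). Cd209d, which encodes SIGNR3, was at 10.5 and 22.6 in M-CSF and 7.9 and 11.8 in GM-CSF, and its libraries overlapped (limma adjusted p 0.424).

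Clec2 genes encode Clr proteins, several of which are ligands for NK cell receptors of the NKR-P1 family. Clec2d, or Clr-b, is the widely expressed ligand of an inhibitory receptor of that family. It was at 5943.8 and 6071.5 in M-CSF and 2233.1 and 2345.2 in GM-CSF, or 0.376 times (0.349 to 0.404) and 0.386 times (0.361 to 0.414), a limma log2 fold of -1.39 ± 0.08 (SE), adjusted p 2.29e-09. Clec2i, or Clr-g, was at 118.9 and 75.8 in M-CSF and 293.9 and 235.6 in GM-CSF, so it was higher in GM-CSF where Clec2d was lower (limma log2 fold 1.42 ± 0.21 SE, adjusted p 3.59e-05). Clec2g was at 23.8 and 30.5 in M-CSF and at 31.4 and 30.1 in GM-CSF, with overlapping libraries (limma adjusted p 0.745). Clec2l was at 2.8 and 6.1 in M-CSF and at 14.6 and 21.5 in GM-CSF, ratios of 5.11 (0.814 to 84.0) and 3.53 (0.967 to 17.2), and missed the threshold (limma adjusted p 0.0513).

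Clec16a was at 750.5 and 679.6 in M-CSF and at 1119.3 and 1041.4 in GM-CSF, a limma log2 fold of 0.59 ± 0.11 (SE) with an adjusted p of 2.40e-04. With equal library totals the fold was 0.25 and the limma adjusted p 0.0520. Clec11a was at 94.2 and 193.4 in M-CSF and at 40.4 and 35.5 in GM-CSF, a limma log2 fold of -1.71 ± 0.32 (SE), adjusted p 3.26e-04. The 10 fibroblast and stromal markers were also far lower in GM-CSF, summing to 29578 and 82476 in M-CSF and to 924 and 968 in GM-CSF, and their part in the Clec11a difference was not tested.

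The other 13 genes stayed under 20 in every library. Clec14a, a gene of endothelial cells, reached 12.2 in db/db M-CSF. Clec2h was at 0 in all 4 libraries, and Clec2e, Clec3a, Clec3b, Clec18a, Clec4f, Clec4g, Cd209b, Cd209e, Cd209f, Cd209g and Clec12b had 0 to 8.7. A value of 0 allows up to 5.23 to 6.73 normalised reads, the value of 3 read pairs in the 4 libraries.

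To compare levels between genes, values were divided by the length of the longest coding transcript in GENCODE M21, whose build is not that of the files. On this scale, normalised reads per kb, Clec4d ranked first of the 26 genes in both M-CSF libraries, at 8693 and 8942, followed by Clec4a1 at 6801 and 6828 and Clec2d at 4900.1 and 5005. In GM-CSF Clec4n ranked first, at 17531 and 18164, followed by Clec7a at 12372 and 12791 and Clec4d at 4530.4 and 4489. Clec4n was 6.74% and 8.86% of the summed level per kb in M-CSF and 41.2% and 41.5% in GM-CSF, and Clec7a was 3.78% and 3.23% in M-CSF and 29.1% and 29.2% in GM-CSF. Clec4a1 went from 19.1% and 18.8% in M-CSF to 0.0897% and 0.0819% in GM-CSF. The db/+ and db/db libraries of a culture had the same first 3 genes in the same order.

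**Figure D4:**
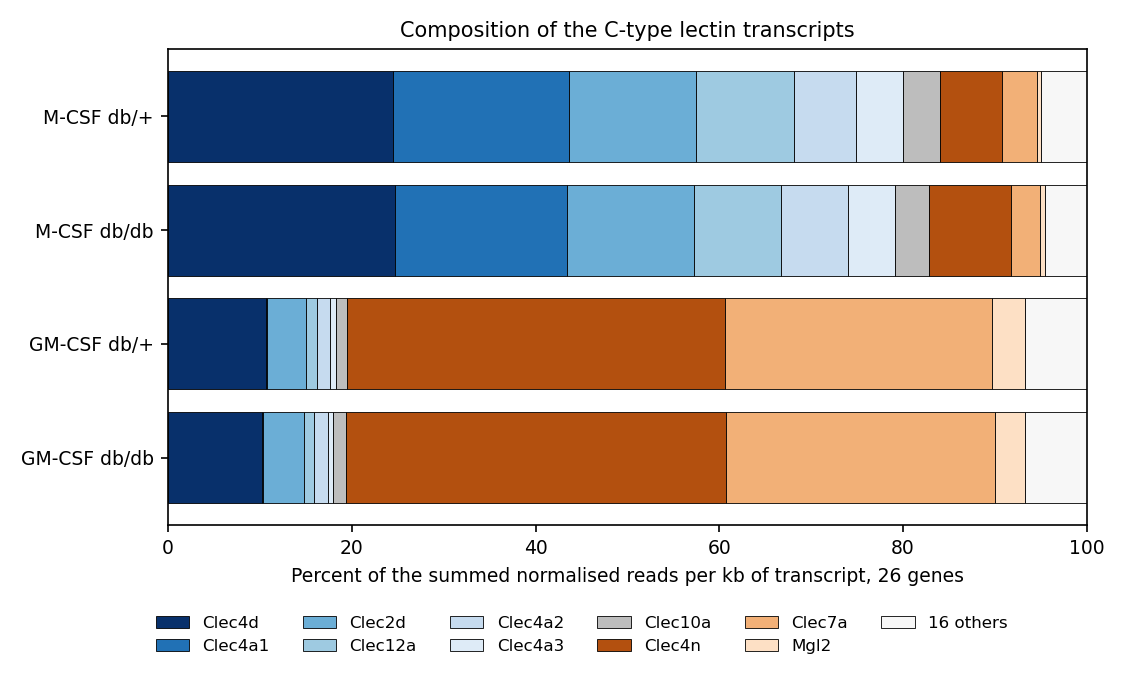
Percent of the summed normalised reads per kb of transcript held by each of 10 genes and by the 16 others together, for the 26 genes, 1 bar per library. Clec4d, Clec4a1, Clec2d and Clec12a fill most of the M-CSF bars, and Clec4n (41.2% and 41.5%) with Clec7a (29.1% and 29.2%) most of the GM-CSF bars.

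The study's other question was how cells of diabetic mice differ from those of controls. In the additive limma model 0 of the 26 genes were called for genotype (adjusted p 0.9996 for each), against 0.00733% of all 13642 genes called higher and 0% lower. Without adjustment 2 genes had a limma p under 0.05, Clec4n with a log2 fold of 0.24 ± 0.10 (SE) and Clec2i with -0.46 ± 0.21, where 4.42% of all genes did. On recovered reads edgeR and DESeq2 also called 0 after adjustment, with 1 and 0 of the 26 at an unadjusted p under 0.05, against 6.05% and 0.821% of all genes. Over all genes edgeR called 0.74% higher and 0.0147% lower, far more than limma, and DESeq2 0.0147% higher and 0% lower. In GM-CSF 0 of the 26 genes were at least 2-fold higher or lower in db/db, against 0.586% and 0.476% of all genes. In M-CSF 2 were at least 2-fold higher, Clec1b and Clec11a, against 5.05% of all genes, and 0 were at least 2-fold lower, against 0.777%. These shares are near the background, on 2 genes, and Clec11a sat on the limit at exactly 2-fold on the log2(value + 5) scale. Each genotype difference below compares 1 library with 1 library and has no replicate check.

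In M-CSF Clec11a had a db/db over db/+ ratio of 2.05 (1.46 to 2.93), and in GM-CSF of 0.879 (0.423 to 1.82). The stromal markers were higher in the same db/db M-CSF library, 9 of 10 of them at least 2-fold, against 5.05% of all genes. Their sums were 82476 against 29578 in M-CSF and 968 against 924 in GM-CSF. Clec1b had a ratio of 2.91 (1.31 to 7.21) in M-CSF and 0.949 (0.775 to 1.16) in GM-CSF. The 6 megakaryocyte markers in the same M-CSF libraries summed to 10061 in db/db against 9152 in db/+, and Itga2b, named after its values were seen, was at 449 against 237. In GM-CSF the sums were 2122 in db/db against 2116 in db/+, and Itga2b was at 91.4 against 52.7. The part of these markers in either ratio was not tested. Clec9a had a ratio of 1.97 (0.989 to 4.15) in M-CSF, where the interval takes in 1, and of 1.04 (0.884 to 1.23) in GM-CSF.

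Intervals that exclude 1 were common in M-CSF. Besides Clec11a and Clec1b, they lay above 1 for Clec4n at 1.34 (1.26 to 1.44), Clec4a2 at 1.09 (1.04 to 1.15) and Mgl2 at 1.28 (1.01 to 1.62). They lay below 1 for Clec7a at 0.871 (0.812 to 0.935), Clec12a at 0.906 (0.871 to 0.943), Clec4b1 at 0.836 (0.715 to 0.979) and Clec2i at 0.638 (0.423 to 0.954). Dectin-2 and Dectin-1, both receptors for fungal cell walls, thus differed in opposite directions between these M-CSF libraries, neither past 2-fold. Clec4a1, at 1.004 (0.968 to 1.04), Clec4d, at 1.03 (0.993 to 1.07), and Clec2d, at 1.02 (0.973 to 1.07), had ratios near 1 with intervals that took in 1. In GM-CSF the intervals excluded 1 for 3 genes, Clec4n at 1.04 (1.01 to 1.07), Clec7a at 1.03 (1.01 to 1.06) and Clec5a at 1.12 (1.04 to 1.203). These intervals leave out the spread between cultures. In all, 9 of 26 intervals excluded 1 in M-CSF, 5 above and 4 below, where those of 34.1% of all 13642 genes did (19.8% above, 14.3% below), a share near that of the 26. In GM-CSF 3 of 26 did, all above 1, against 6.68% of all genes (4.29% above, 2.39% below).

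**Figure D5:**
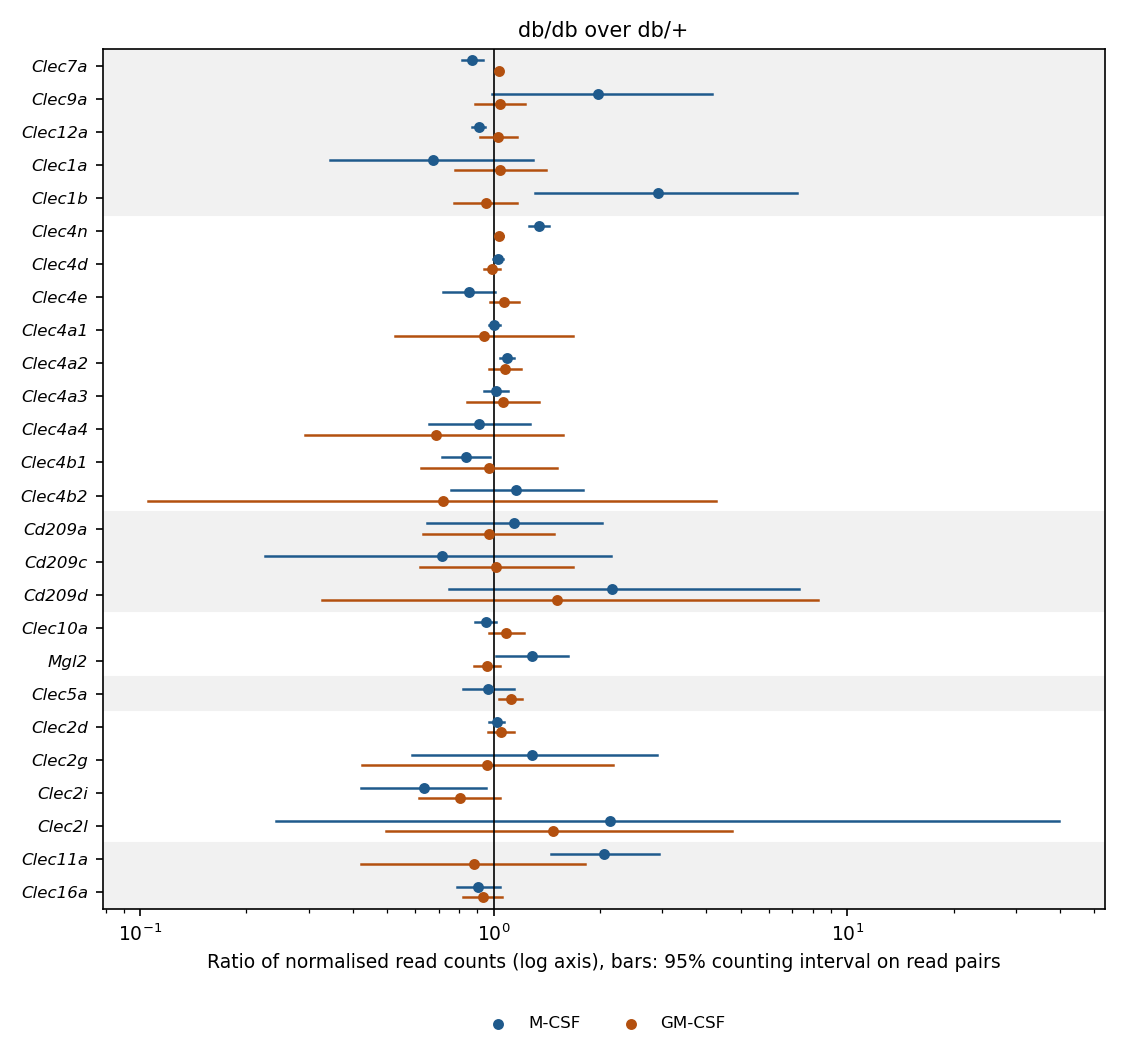
Ratio of normalised read counts in db/db over db/+ (log axis) for the 26 genes, in M-CSF (blue) and GM-CSF (orange), with 95% counting intervals on read pairs as bars. The highest ratio in M-CSF is that of Clec1b at 2.91, and the GM-CSF ratios of the abundant genes lie close to 1, such as Clec7a at 1.03.

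Genes that pass on the receptors' signals were taken from a list of 37 partners, all of which reached 20. For culture limma called 15 higher and 16 lower in GM-CSF, where 29.8% and 27.3% of all genes were called, with a median log2 fold of -0.09 against 0.02 over all genes. Syk was at 11149 and 9954 in M-CSF and at 12158 and 12493 in GM-CSF. Card9, the adaptor downstream of Syk, was at 1375 and 1075 in M-CSF and 1772 and 1784 in GM-CSF (limma log2 fold 0.55 ± 0.10 SE, adjusted p 4.37e-04). Malt1, the protease bound to Card9 through Bcl10, was at 1114 and 1158.0 in M-CSF and at 7144 and 7784.5 in GM-CSF, a limma log2 fold of 2.71 ± 0.08 (SE), adjusted p 1.95e-12, while Fcer1g had a log2 fold of 0.12 ± 0.09 (limma adjusted p 0.311). Of the rest with the largest folds, Lsp1, part of the signalling complex of DC-SIGN, had a limma log2 fold of 3.09, the Src family kinase Fgr 2.75, and the calcineurin target Nfatc2 -2.65. The kinase Src followed at 2.26, then the kinase Map3k14 at -1.75, the exchange factor Vav3 at -1.27 and the Ras activator Rasgrp3 at -1.22. For genotype 0 of the 37 were called, and 0 were at least 2-fold apart in either culture.

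Lectin-domain genes with other symbols were taken from a list of which 42 stood in the files and 23 reached 20. Limma called 7 higher and 12 lower in GM-CSF, where 29.8% and 27.3% of all genes were called. The share called higher was thus near that of all genes. The median log2 fold was -0.47, against 0.02 over all genes. Ly75, the endocytic receptor DEC-205, was at 145.5 and 426 in M-CSF and 4434 and 4231 in GM-CSF, and Olr1, a receptor for oxidised LDL, at 21.9 and 35.7 in M-CSF and 839 and 875 in GM-CSF. Mrc2, a collagen-uptake receptor of fibroblasts, was at 409.9 and 1132 in M-CSF and at 2.3 and 2.2 in GM-CSF, and the B cell and macrophage receptor Cd72 at 2669.9 and 2581.8 in M-CSF and at 138.0 and 115.1 in GM-CSF. The other large limma log2 folds were those of Klrb1a at 5.17 and Klrb1c at 2.94, both of the NKR-P1 family, of the eosinophil granule gene Prg2 at -3.99 and of the phospholipase receptor Pla2r1 at -3.12. In the M-CSF libraries db/db exceeded db/+ by 2-fold or more for 4 of the 23, namely Mrc2, Ly75, Cd207 and Colec12, the last 2 named after their values were seen, and 0 were at least 2-fold lower, against 5.05% and 0.777% of all genes. Those 4 were not called for genotype in the limma model, where 0 of the 23 passed.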

How the data were processed

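RNA-seq was analysed in 4 libraries, 1 per group. The deposited values are a normalised signal per gene symbol. The tools that the authors list, per the submitters' processing notes, are TopHat (version 1.2.0) and edgeR, and the builds mm8 and mm9 appear there with no role. No source used here gives the counting tool or the strandedness. In each library 99.9% to 100.0% of values were whole multiples of 1 read, within 0.1 read, so whole reads were recovered by division, at 0.871 to 1.12 per read. No per-sample column was left unused.

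The gene set and all gene lists were chosen with earlier results of these data known. Every row fitting the symbol rule was accounted for, and rows at 20 or more in at least 1 library were given with folds. From the lists of signalling partners and of other lectin genes, the 8 with the largest culture fold were eligible to be named, besides Syk, Card9, Fcer1g and Tyrobp. Of marker lists only sums, counts, the highest gene and genes at 0 were to be named, and exceptions are marked. Symbols in more than 1 row numbered 38.

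Culture and genotype were tested by limma 3.58.1 (R 4.3.3) with a variance trend on log2(value + 5) over 13642 genes, with Benjamini-Hochberg adjustment. Alternatives were edgeR 4.0.16 and DESeq2 1.42.0 on recovered reads, pseudocounts of 1 and 20, other level minimums, equal library totals, no trend, models with culture or genotype alone, and each library left out. The limma step was tested on simulated data that had 1 spread setting for all libraries and no genotype effect. The unequal spread of the M-CSF and GM-CSF libraries was not simulated, so that test does not bear on it. Depth was 25603389 to 28622705 reads. Promoters and gene order came from RefSeq GRCm38.p6 and lengths from GENCODE M21. The promoter table matched 22 of 26 genes, without Clec10a, Clec1a, Clec4a4 and Clec4n.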

Additional observations from a re-analysis of the deposited data

Results flagged for a closer look

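Clec7a, the Dectin-1 gene, had genotype ratios on opposite sides of 1 in the 2 cultures. Its db/db over db/+ ratio was 0.871 (95% counting interval 0.812 to 0.935) in M-CSF and 1.03 (1.01 to 1.06) in GM-CSF, so the intervals lay on either side of 1. With 1 library per group the difference between the cultures was not tested, and the intervals hold counting error only.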

How the results depend on the processing

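The count of 23 genes called for culture ranged from 18 to 27 over the alternatives, the extremes being a level minimum of 200 (18 genes tested) and no minimum (38 tested), and from 22 to 24 with each library left out, where the model held culture alone. Cd209a and Clec16a lost their calls as given above. Clec2l gained one in 6 settings, with adjusted p of 0.00801 to 0.0498 by limma or edgeR. The count for genotype was 0 in every setting run. The 2 genes at least 2-fold apart between genotypes in M-CSF became 0 with a pseudocount of 20, 1 with a level minimum of 200 and 9 where any interval excluding 1 was counted (5 higher, 4 lower), and the 0 in GM-CSF became 3 by the same interval rule. With intervals on single reads these were 14 and 7, against 48.8% and 18.7% of all genes. Fitted folds changed sign in 4 cases, none of them called under either setting: Clec2g for culture with equal totals (-0.13), and for genotype Clec4b2 with edgeR (0.050) and a pseudocount of 20 (0.021) and Clec4d with DESeq2 (-0.0013). No paired analysis was possible because each group has 1 library and the labels give no replicate numbers. With 1 library per group, genotype differences within a culture have no replicate check.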
